A study of Mus musculus with 16 samples.

Results

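CD8 T cells from mouse kidney allografts undergoing rejection were compared with CD8 T cells from the spleens of recipients rejecting such grafts, both at 1 week after transplantation. The cells were taken from the series' droplet single-cell RNA-seq matrices of CD8 T cells from these tissues, keeping each cell with at least 1 UMI (a unique molecular identifier, standing for 1 captured transcript) of Cd8a or Cd8b1 and none of Cd4, Cd79a or Lyz2. This rule kept 1897 of 2910 cells, 1300 from the graft and 597 from the spleen, out of 72639 cells in the series' 9 CD8 T cell matrices. The cell barcodes carry library tags, 2 for the graft (kidney 2 and kidney 3) and 3 for the spleen (spleen 1, spleen 2 and spleen 3). The rule kept 63.0% and 55.0% of the cells of kidney 2 and kidney 3. In spleen 1, spleen 2 and spleen 3 it kept 88.4%, 73.2% and 77.0%. All 726 spleen cells had a Cd8a or Cd8b1 UMI before the rule, against 1687 of 2184 graft cells. Of these, 60 spleen cells and 383 graft cells had a Lyz2 UMI.

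In the rejection model, kidneys of C57BL/6J (B6) mice were placed in DBA/2J recipients whose own kidneys were removed. The labels give strain C57BL/6J and genotype WT for both samples, which is the strain of the donor in that model. By the model, spleen cells and recipient cells that entered the graft would be DBA/2J. The part of strain in the counts of single genes, aligned to build mm10, was not tested. All mice were male, and neither tissue comes from a treated animal. Viable CD45+ leukocytes were sorted from both tissues, but grafts were perfused and digested with enzymes whereas spleens were ground and cleared of red cells, so tissue and preparation cannot be told apart. By the methods each mouse was its own sample, but they neither give the number of mice in the rejection group nor tie the library tags to mice. P-values therefore measure the spread between libraries, which may be technical.

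CD8 T cells that meet their antigen in a lymphoid organ lose the gene program of naive cells, divide and acquire granzymes, perforin and IFN-γ, with which they kill target cells. Naive and central memory cells circulate through spleen and lymph nodes, guided by CCR7 and the sphingosine phosphate receptor S1PR1, whereas effector cells enter inflamed tissue and may be held there by integrins. Repeated antigen contact induces inhibitory receptors such as PD-1 and the transcription factor TOX.

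Library depth after the selection lay between 109968 UMIs in spleen 2, which held 41 cells, and 1812402 UMIs in kidney 3, which held 523. Kidney 2 held 777 cells, spleen 1 held 312 and spleen 3 held 244. No barcode was shared between libraries. The summed level of 10 CD8 T cell markers was 7915 to 9072 CPM (UMIs of a gene scaled to a common library total of 1000000 UMIs) in the graft libraries and 4583 to 5215 CPM in the spleen libraries, and 9 of the 10 were higher in both graft libraries than in any spleen library. The summed level of 17 B cell markers was 423 to 786 CPM in the graft and 660 to 1091 CPM in the spleen, with Cd79a at 0 by the rule. Of them 3 were higher in every spleen library than in either graft library and 0 the other way. Igkc stood at 3.81 and 0.552 CPM in the graft and at 128, 737 and 305 CPM in the spleen, while Cd74 was highest in kidney 2 at 288 CPM. The 20 myeloid markers summed to 996 to 1214 CPM and 700 to 1428 CPM, with Lyz2 at 0 by the rule. Of them 10 were higher in both graft libraries than in any spleen library, while the neutrophil genes S100a8 and S100a9 held 664 and 382 CPM in spleen 2 and 147 and 386 CPM in spleen 3. The 9 NK cell markers summed to 93.8 to 217 CPM and 442 to 575 CPM, of which Txk, a kinase gene also in the naive list, made up 546, 537 and 433 CPM in the spleen libraries, and 3 of the 9 were higher in both graft libraries. Markers of CD4 T cells and regulatory CD4 T cells, 7 in all, summed to 525 to 659 CPM in the graft and 101 to 136 CPM in the spleen, most of the graft sum coming from Ctla4 and Ikzf2, while Foxp3 stood at 5.72 and 5.52 CPM in the graft. The 7 gamma-delta T cell markers summed to 24.8 to 76.2 CPM in the graft and 0 to 16.5 CPM in the spleen, with Tcrg-C2 at 55.3 and 20.4 CPM against 1.53, 0 and 0 CPM and Trdv4 and Il17a at 0 in every library. Of 10 transcripts tied to RNA quality, 6 were higher in every spleen library than in either graft library, all mitochondrial, with mt-Nd1 at 816 and 871 CPM in the graft and 1682, 1546 and 1139 CPM in the spleen. Mitochondrial genes made up 1.38 and 1.41% of the UMIs in the graft and 1.72 to 1.87% in the spleen. The part of other cell types and of RNA quality in the results was not tested. A fit was run without marker-positive cells, those with UMIs of at least 2 genes of the B cell, myeloid, erythroid or kidney parenchyma list. These lists hold genes that CD8 T cells also carry, such as Ftl1. It stood at 376 and 424 CPM in the graft. In CD8 T cells of naive spleens, selected by the same rule from another CD8 T cell matrix of the series, Ftl1 was at 408 to 466 CPM. The fit therefore also leaves out CD8 T cells, more easily those with many UMIs, and cannot separate other cell types from them. That fit kept 207 of the 777 cells of kidney 2, 120 of 523 of kidney 3, 196 of 312 of spleen 1, 6 of 41 of spleen 2 and 76 of 244 of spleen 3, so its spleen values rest almost wholly on spleen 1 and spleen 3. For some genes its adjusted p was far smaller than in the main test although fewer cells were kept, for Gzmb 5.0e-30 against 2.4e-06. Its p-values should therefore not be compared with those of the main test. Kidney parenchyma markers were near 0, with 10 of 20 at 0 in every library and a sum of 33.7 to 34.8 CPM in the graft.

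Across 7586 tested genes, 835 (11%) were higher in graft CD8 T cells and 373 (4.92%) were lower at an adjusted p under 0.05 in edgeR's quasi-likelihood test of the library sums. These shares are the comparison for the counts in the gene lists below. Of these 1208 genes, 1154 showed no overlap between the libraries of the tissues, which held for 42.6% of all tested genes. In such sums, fewer cells that express a gene and less RNA per cell cannot be told apart. The median log2 fold change (graft minus spleen) over all tested genes was 0.26, so that 69.1% of the calls were in the direction of the graft. Under TMM scaling the median was 0.03 and the split was even, with 516 genes higher and 512 lower (50.2% higher). All 516 and 373 of the 512 were also called in the unscaled test. Ribosomal protein genes, of which 40 of 88 tested were lower in the graft, 1 was higher and the median was -0.64, made up 19.2% and 18.5% of UMIs in the graft libraries and 33.5%, 33.5% and 28.6% in the spleen libraries, a list chosen after its values were seen. Without spleen 1, the library with the most spleen UMIs, 284 genes were higher and 167 lower, and without spleen 3 the counts were 519 and 234.

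**Figure D1:**
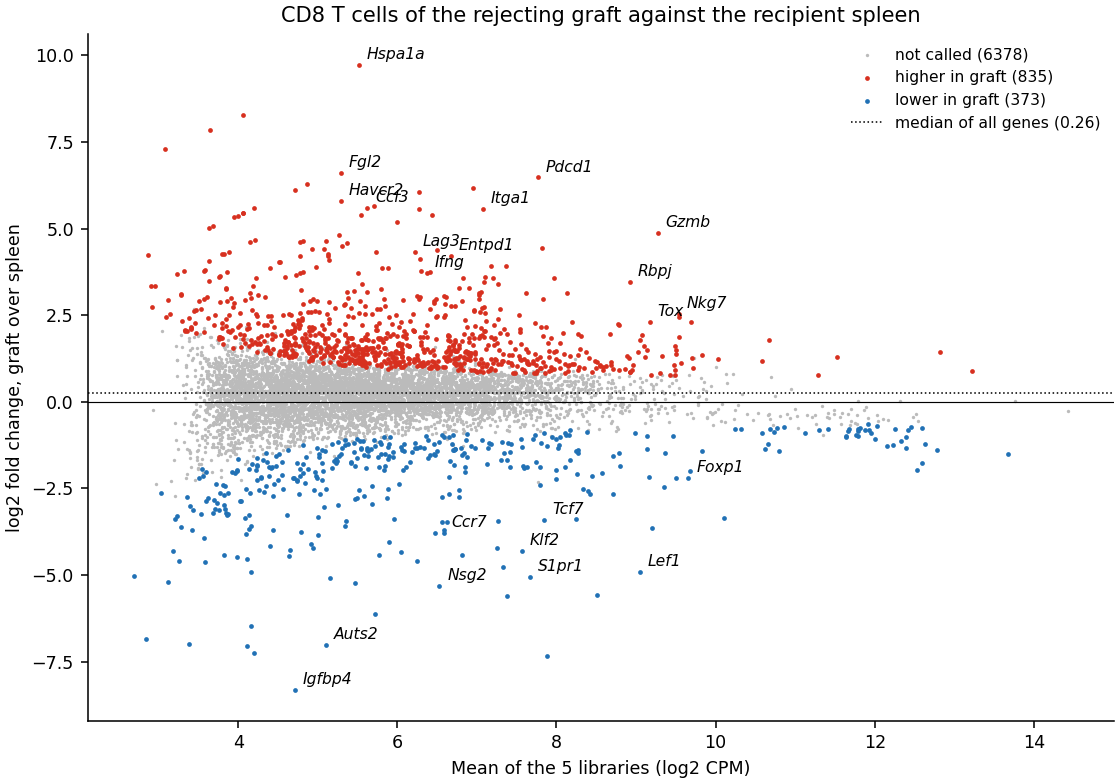
Log2 fold change of each tested gene (graft minus spleen, vertical axis) against its mean level over the 5 libraries (log2 CPM, horizontal axis), with genes called higher in red and lower in blue. Pdcd1, Gzmb and Itga1 lie far above 0 and Nsg2, S1pr1 and Lef1 far below it, and the fitted values of Hspa1a and Igfbp4 depend on the prior count because all libraries of 1 tissue are at 0.

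Genes of the cytotoxic granule were mostly higher in graft CD8 T cells. Of 15 tested granule genes, 10 were higher in the graft, 1 was lower and the median log2 fold change was 1.52. Gzmb, encoding granzyme B, stood at 1104 and 1808 CPM in kidney 2 and kidney 3, and at 18.3, 109 and 59.8 CPM in spleen 1, spleen 2 and spleen 3. Both graft libraries lay above every spleen library, and the log2 fold change was 4.88 ± 0.46 (SE; adjusted p = 2.4e-06). Prf1, encoding the pore-forming protein perforin, measured 184 and 248 CPM against 39.8, 63.7 and 51.6 CPM (2.16 ± 0.32, adjusted p = 1.6e-04). Nkg7, a membrane protein of cytotoxic granules, measured 1417 and 1513 CPM against 199, 309 and 268 CPM (2.54 ± 0.27, adjusted p = 6.2e-06). Perforin and Nkg7 thus differed by smaller factors than Gzmb, with no overlap for either gene.

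Gzmf, a granzyme of strongly activated killer cells, was found in the graft at 38.7 and 44.7 CPM and had no UMI in the spleen, which makes it at least 17.4-fold higher against 3 UMIs over the spleen libraries. Gzmk was at 25.4 and 57.9 CPM in the graft and 3.06, 0 and 8.25 CPM in the spleen (log2 fold change 3.09 ± 0.62, adjusted p = 0.0023), a call lost without spleen 1, where adjusted p was 0.077. Granzymes did not all move one way. Gzmm was the granule gene that was lower in the graft, with 0 and 3.86 CPM against 56.6, 18.2 and 26.8 CPM (-4.16 ± 0.74, adjusted p = 7.3e-04; 0.063 without spleen 1), and with marker-positive cells left out the value was -1.92 (adjusted p = 0.10). Gzma, encoding granzyme A, measured 82.6 and 243 CPM in the graft and 94.8, 264 and 173 CPM in the spleen, so the groups overlapped and the log2 fold change was 0.01 ± 0.43. Ctsw and Cst7, encoding a cathepsin and a cystatin of cytotoxic cells, had log2 fold changes of 1.52 ± 0.30 and 1.26 ± 0.31 (adjusted p = 0.0019 and 0.0096), and the call on Cst7 was lost without spleen 1 or without spleen 3.

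In all, 3 cytokine and 3 chemokine genes were also higher in the graft, of 7 and 4 tested. Ifng, encoding IFN-γ, was at 162 and 214 CPM in the graft and 18.3, 9.09 and 10.3 CPM in the spleen (3.72 ± 0.38, adjusted p = 5.3e-06). Tnfsf10, encoding the death ligand TRAIL, measured 166 and 142 CPM against 15.3, 45.5 and 16.5 CPM (2.98 ± 0.39, adjusted p = 5.0e-05). Tgfb1, encoding the suppressive cytokine TGF-β1, measured 194 and 142 CPM against 76.4, 27.3 and 55.7 CPM (1.48 ± 0.33, adjusted p = 0.0054). All 3 separated the tissues in every library.

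Ccl3, encoding an inflammatory chemokine, was at 120.0 and 121 CPM in the graft and 4.59, 0 and 0 CPM in the spleen (log2 fold change 5.59 ± 0.56, adjusted p = 4.1e-06). Ccl4, a related chemokine gene, was at 243 and 141 CPM against 24.5, 18.2 and 0 CPM (3.76 ± 0.56, adjusted p = 1.7e-04; 5.70 without spleen 1). Xcl1, which attracts cross-presenting dendritic cells, was at 241 and 139 CPM against 7.64, 0 and 0 CPM (5.55 ± 0.58, adjusted p = 5.9e-06). All spleen UMIs of Ccl3 and Xcl1, 3 and 5 of them, came from spleen 1, and the fitted values ranged from 4.93 to 9.91 and from 4.88 to 10.56 when 1 library was left out, the highest without spleen 1, where no spleen UMI remained and the size of the value depends on the prior count. Ccl5, the chemokine with the highest level, was not called. It measured 2616 CPM in kidney 2 but 281 CPM in kidney 3, below the 488, 1409.5 and 361 CPM of the spleen libraries (log2 fold change 1.01 ± 0.62, adjusted p = 0.30), and without kidney 2 the value was -1.35. It passed as higher with dividing cells left out (1.54, adjusted p = 0.024) and in thinned cells (1.68, adjusted p = 0.015). It also passed with marker-positive cells left out (2.20) and with no filter on low counts. Cxcl9, an interferon-induced chemokine made mainly by myeloid cells, had a log2 fold change of 6.10 ± 0.72 (adjusted p = 1.3e-05) with 72.4 and 56.3 CPM in the graft and 1 spleen UMI, in spleen 3, without which the fitted value was 9.06. Lyz2-positive leukocytes of the rejecting grafts, taken from the matrix of all CD45+ cells and without CD3 or CD8 UMIs, held 3020.1 and 4112 CPM of Cxcl9. With marker-positive cells left out the value was 7.20. It rests on at most 1 spleen UMI, so its size depends on the prior count. The part of these leukocytes was not tested.

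**Figure D2:**
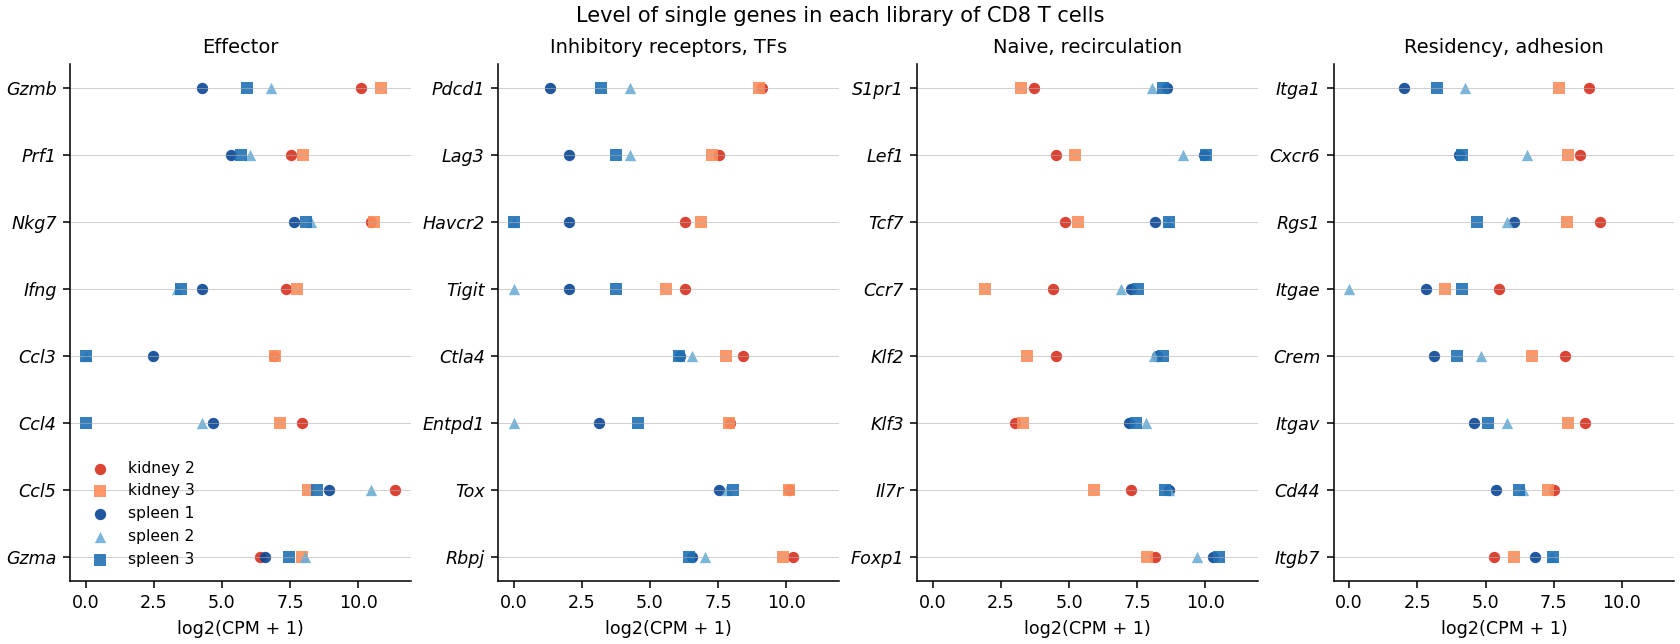
Level of selected genes in each library as log2(CPM + 1), 1 point per library, with graft libraries in red and orange and spleen libraries in blue. Gzmb, Pdcd1 and Itga1 separate the tissues, whereas Gzma and Ccl5 overlap.

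Inhibitory receptors were mostly higher in graft CD8 T cells. Of 14 tested genes, 9 were higher in the graft and 1 was lower, with a median log2 fold change of 2.59. Pdcd1, encoding PD-1, was at 551 and 509.8 CPM in the graft and at 1.53, 18.2 and 8.25 CPM in the spleen (6.48 ± 0.47, adjusted p = 3.7e-07). Lag3, which binds MHC class II, measured 185 and 154 CPM against 3.06, 18.2 and 12.4 CPM (4.33 ± 0.46, adjusted p = 6.3e-06). Tigit, a receptor for nectin-like ligands, measured 76.2 and 46.9 CPM against 3.06, 0 and 12.4 CPM (3.23 ± 0.55, adjusted p = 5.6e-04). The graft libraries differed little from each other for Pdcd1 and Lag3.

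Ctla4, a competitor of CD28 for its ligands, differed less than Pdcd1, Lag3 and Tigit at 342 and 219.6 CPM against 67.3, 90.9 and 66.0 CPM (1.98 ± 0.31, adjusted p = 2.8e-04). Havcr2, encoding TIM-3, and Entpd1, encoding the ectonucleotidase CD39, had log2 fold changes of 5.81 ± 0.62 and 4.22 ± 0.44 (adjusted p = 6.2e-06 and 5.9e-06). Havcr2 was at 3.06, 0 and 0 CPM in the spleen, with its 2 UMIs from spleen 1, and its value ranged from 5.15 to 9.58 when 1 library was left out, the highest without spleen 1, where no spleen UMI remained. Lyz2-positive graft leukocytes held 225 and 157 CPM of Havcr2 and 609 and 425 CPM of Entpd1, as high as or higher than the 76.2 and 116 CPM and the 244 and 236 CPM of the graft CD8 T cells. With marker-positive cells left out, the values were 7.58 for Havcr2 and 4.42 for Entpd1. That of Havcr2 rests on at most 2 spleen UMIs, so its size may depend on the prior count. The part of these leukocytes was not tested. The exception was Btla, a receptor for HVEM, which was lower in the graft with 13.3 and 6.62 CPM against 42.8, 18.2 and 55.7 CPM (-2.14 ± 0.47, adjusted p = 0.0042), a call lost without spleen 1, without spleen 3, in thinned cells and with marker-positive cells left out. Cd5, a negative regulator of T cell receptor signalling, was not called (0.40 ± 0.30, adjusted p = 0.41), although both graft libraries lay just above the highest spleen library.

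Of 21 tested transcription factors of effector and chronically stimulated cells, 16 were higher in the graft and none was lower (median log2 fold change 1.71). Tox stood at 1106 and 1105 CPM in the graft and 183, 227 and 266 CPM in the spleen (2.30 ± 0.27, adjusted p = 1.4e-05). Rbpj, the DNA-binding mediator of Notch signalling, measured 1200.3 and 929.7 CPM against 91.7, 127 and 84.6 CPM (3.47 ± 0.29, adjusted p = 1.2e-06). Prdm1, encoding Blimp-1, and Ikzf2, encoding Helios, had log2 fold changes of 3.72 ± 0.58 and 2.98 ± 0.36 (adjusted p = 2.3e-04 and 2.2e-05). These genes separated the tissues in every library.

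Nr4a2, an orphan nuclear receptor induced by T cell receptor signals, was higher in the graft at 3.58 ± 0.45 (adjusted p = 3.1e-05), with 363 CPM in kidney 2 and 138 CPM in kidney 3. Id2 and Runx3, regulators of effector and resident cells, had log2 fold changes of 1.30 ± 0.32 and 1.25 ± 0.31 (adjusted p = 0.010 for each), and both calls were lost without spleen 1. Eomes, the T-box factor of memory cells, was not called, with 22.9 and 19.3 CPM against 38.2, 9.09 and 82.5 CPM (-1.27 ± 0.46, adjusted p = 0.072), although it passed as lower under TMM scaling.

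The reverse was found for the program of naive and recirculating cells, where 17 of 22 tested genes were lower in the graft and none was higher (median log2 fold change -2.63). S1pr1, the receptor for egress from tissue, measured 12.1 and 8.28 CPM against 385, 264 and 345 CPM (-5.05 ± 0.37, adjusted p = 3.7e-07). Lef1, a TCF family transcription factor, measured 21.6 and 36.4 CPM against 978, 573 and 1032 CPM (-4.90 ± 0.38, adjusted p = 6.7e-07). No graft library came near any spleen library for these genes.

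Klf2, an activator of S1pr1 transcription, and its relative Klf3 had log2 fold changes of -4.29 ± 0.38 and -4.43 ± 0.38 (adjusted p = 1.5e-06 and 1.4e-06). Tcf7, encoding TCF-1, was at 27.9 and 38.6 CPM in the graft and 283, 391 and 409 CPM in the spleen (-3.41 ± 0.33, adjusted p = 3.2e-06). Ccr7, the chemokine receptor for lymph node entry, measured 20.3 and 2.76 CPM against 154, 118 and 184 CPM (-3.79 ± 0.52, adjusted p = 8.1e-05). Il7r, the survival receptor of naive and memory cells, differed less, with 152 and 59.6 CPM against 402, 400.1 and 367 CPM (-1.88 ± 0.35, adjusted p = 0.0014). Igfbp4 had no UMI in the graft and 26.0, 45.5 and 59.8 CPM in the spleen, at least 46.1-fold lower against 3 UMIs over the graft libraries. The genes that were not called in this list were Btg1, Ets1, Foxo1, Id3 and Rapgef6.

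Several genes outside the lists were as low in the graft. Auts2 was at 0.635 and 0 CPM against 58.1, 63.7 and 49.5 CPM (-7.02 ± 0.73, adjusted p = 3.2e-06), and Treml2 at 1.27 and 2.21 CPM against 45.9, 72.7 and 99.0 CPM (-5.24 ± 0.56, adjusted p = 5.9e-06). Dtx1, a target and regulator of Notch signalling, had a log2 fold change of -4.33 ± 0.46 (adjusted p = 6.3e-06), in the direction opposite to Rbpj. S100a8, a neutrophil gene, was called as lower (-5.61 ± 1.06, adjusted p = 0.0014), with 4.45 and 4.41 CPM in the graft and 15.3, 664 and 147 CPM in the spleen, so the spleen level came mostly from spleen 2 and spleen 3.

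Genes of tissue residence were higher in the graft in 8 of 10 tested (median log2 fold change 3.10). Itga1, the collagen-binding integrin CD49a, was at 439 and 207 CPM in the graft and 3.06, 18.2 and 8.25 CPM in the spleen (5.58 ± 0.51, adjusted p = 2.1e-06). Cxcr6, the receptor for CXCL16, measured 354 and 259 CPM against 15.3, 90.9 and 16.5 CPM (3.58 ± 0.48, adjusted p = 6.3e-05). Rgs1, a brake on chemokine receptor signalling, measured 582 and 252 CPM against 64.2, 54.6 and 24.8 CPM (3.14 ± 0.41, adjusted p = 5.3e-05). For each of them kidney 2 was above kidney 3. Itgae, encoding the CD103 integrin chain that binds E-cadherin, was not called, with 43.8 and 10.5 CPM against 6.12, 0 and 16.5 CPM (1.48 ± 0.70, adjusted p = 0.16).

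Chemokine receptors were divided, with 2 of 7 tested genes higher and 2 lower (28.6% each, against 11% and 4.92% of all tested genes). The inflammatory receptors Ccr2 and Cx3cr1 were higher by log2 fold changes of 1.97 ± 0.36 and 1.80 ± 0.48 (adjusted p = 0.0012 and 0.016), and the call on Cx3cr1 was lost without spleen 1 or without spleen 3. Lyz2-positive graft leukocytes held 634 and 708 CPM of Ccr2 and 151 and 129.7 CPM of Cx3cr1, above the 224 and 169 CPM and the 34.9 and 40.8 CPM of the graft CD8 T cells. The part of these leukocytes was not tested. Ccr2 kept its call with marker-positive cells left out, a fit in which Cx3cr1 was not among the tested genes. Ccr9, a gut homing receptor, and Cxcr4, the receptor for CXCL12, were lower at -4.29 ± 0.61 and -3.26 ± 0.68 (adjusted p = 9.5e-05 and 0.0027). Cxcr3, the receptor for CXCL9, overlapped at 46.4 and 54.6 CPM against 26.0, 81.8 and 31.0 CPM (0.48 ± 0.40).

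Of 14 adhesion genes, 4 were higher and 2 were lower (28.6% and 14.3%, against 11% and 4.92% of all tested genes). Itgav, the αV integrin chain, was at 399 and 263 CPM against 22.9, 54.6 and 33.0 CPM (3.40 ± 0.36, adjusted p = 6.3e-06). Cd44, the hyaluronan receptor of antigen-experienced cells, and Itgb1, the β1 integrin chain, were higher at 1.46 ± 0.33 and 1.38 ± 0.32 (adjusted p = 0.0053 and 0.0074), and both calls were lost without spleen 1. Itgb7, a chain of gut homing integrins, was lower at -1.52 ± 0.34 (adjusted p = 0.0051).

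**Figure D3:**
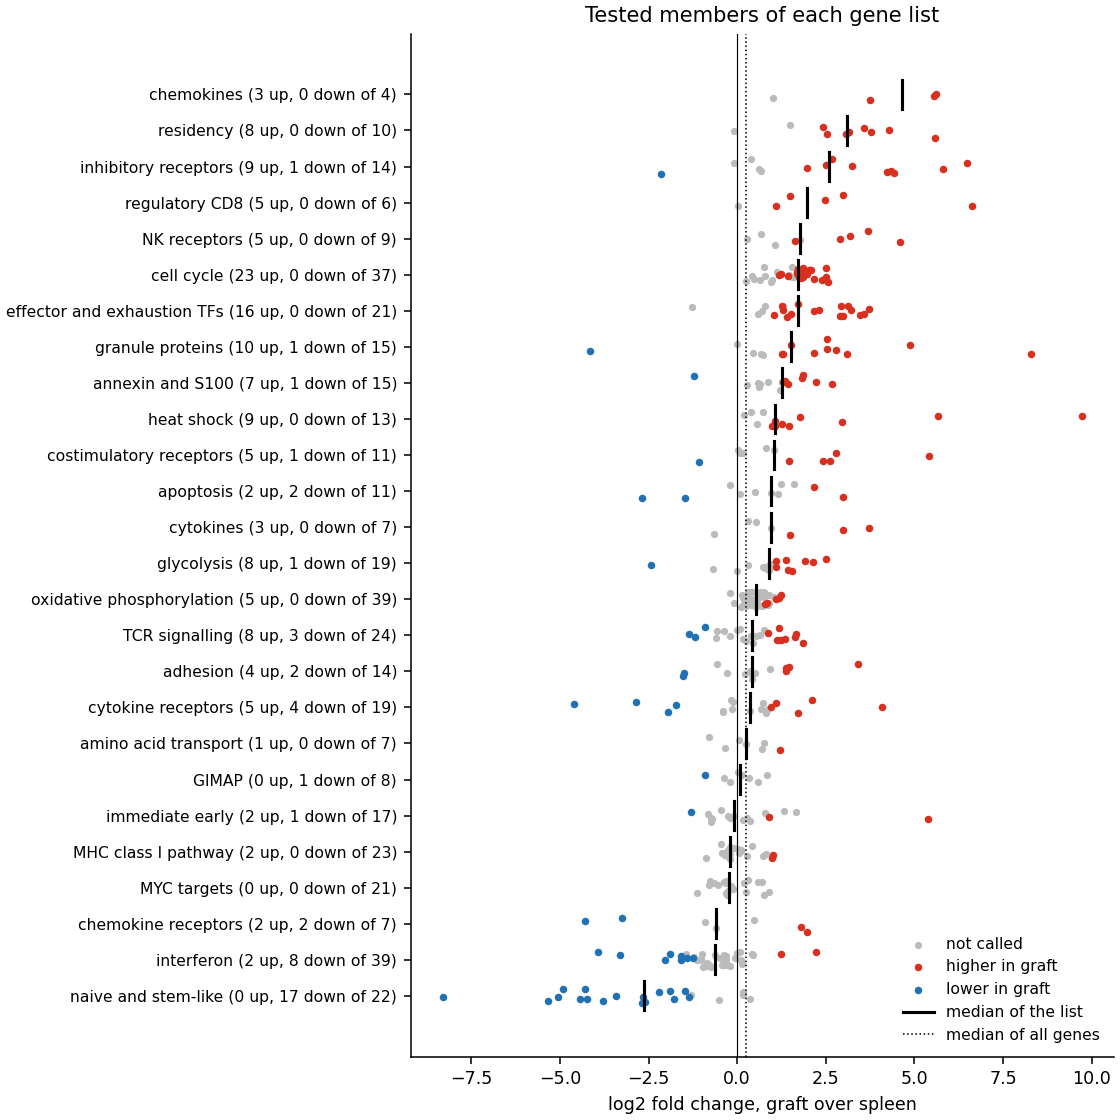
Log2 fold change (graft minus spleen) of every tested member of each gene list, 1 row per list, with called genes in red or blue and a bar at the median of the list. Naive cell genes lie below 0 with a median of -2.63 and residency genes above it with a median of 3.10, and the fitted values of Hspa1a, Gzmf and Igfbp4 depend on the prior count because all libraries of 1 tissue are at 0.

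Among costimulatory receptors 5 of 11 tested genes were higher in the graft and 1 was lower (45.5% and 9.09%, against 11% and 4.92% of all tested genes). Tnfrsf9, encoding 4-1BB, was at 138 and 81.7 CPM against 0, 9.09 and 4.13 CPM (5.41 ± 0.63, adjusted p = 1.3e-05), and Icos at 316 and 189.8 CPM against 45.9, 36.4 and 37.1 CPM (2.62 ± 0.33, adjusted p = 3.7e-05). Cytokine receptors were divided, with 5 of 19 higher and 4 lower (26.3% and 21.1%, against 11% and 4.92% of all tested genes). Under TMM scaling 2 were higher and 4 lower. Il2ra, the α chain that raises the affinity of the IL-2 receptor, was at 83.8 and 81.7 CPM against 4.59, 0 and 6.19 CPM (4.08 ± 0.47, adjusted p = 1.3e-05). Il2rb, the β chain CD122, was near the threshold at 371 and 401 CPM against 151, 346 and 111 CPM (1.09 ± 0.36, adjusted p = 0.048), and the call was lost under TMM scaling, without spleen 1 and without spleen 3. Both receptors of the IL-6 family were lower, Il6ra at -4.59 ± 0.43 and its signalling chain Il6st at -1.96 ± 0.32 (adjusted p = 2.2e-06 and 3.7e-04).

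Of 6 tested genes linked to regulatory CD8 T cells, 5 were higher, and 4 under TMM scaling. The other 6 of the 12 listed, Foxp3 among them, fell below the filter on low counts. The 5 include Il2rb, Tgfb1 and Ikzf2, which are also described with other lists. Fgl2, encoding a secreted suppressor of dendritic cells, was at 119 and 67.3 CPM against 0, 9.09 and 0 CPM (6.61 ± 0.79, adjusted p = 1.4e-05). Without spleen 2, which held the 1 spleen UMI, the value was 9.72. Lyz2-positive graft leukocytes held 395 and 513 CPM, and their part was not tested. With marker-positive cells left out, a fit with 6 cells of spleen 2, the value was 7.77. It rests on at most 1 spleen UMI, so its size depends on the prior count. Nt5e, encoding the adenosine-forming enzyme CD73, was at 102 and 65.7 CPM against 15.3, 9.09 and 16.5 CPM (2.47 ± 0.39, adjusted p = 3.0e-04). Receptors first known from NK cells were higher in 5 of 9 tested, among them Klrc1, encoding the inhibitory receptor NKG2A, at 2.91 ± 0.43 (adjusted p = 1.7e-04) and Klrk1, encoding the activating receptor NKG2D, at 1.64 ± 0.31 (adjusted p = 0.0014). Fcer1g, a signalling adaptor, was higher at 4.59 ± 0.50 (adjusted p = 7.5e-06) with 120.0 and 77.8 CPM in graft CD8 T cells. Lyz2-positive graft leukocytes held 1830.5 and 2058 CPM, and their part was not tested. With marker-positive cells left out the value was 4.79.

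Cell cycle genes were higher in the graft in 23 of 37 tested and lower in none, with a median log2 fold change of 1.71, and in 12 under TMM scaling. Much of the level came from kidney 3. Mki67, the proliferation antigen Ki-67, was at 232 and 859 CPM in kidney 2 and kidney 3 and at 135, 218 and 99.0 CPM in the spleen (1.97 ± 0.44, adjusted p = 0.0050). Top2a, the topoisomerase that untangles replicated chromosomes, measured 481 and 1370.0 CPM against 365, 227 and 196 CPM (1.79 ± 0.38, adjusted p = 0.0033). Cenpe, the kinesin of the kinetochore, measured 38.1 and 205 CPM against 21.4, 36.4 and 16.5 CPM (2.51 ± 0.59, adjusted p = 0.0069). Without kidney 3 the calls on all 3 genes were lost, and without spleen 1 those on Mki67 and Cenpe.

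Promoters of Top2a and Cenpe are shown because all 37 tested cell cycle genes had a log2 fold change above 0, though 14 were not called. The CCAAT box is a motif common in promoters of genes of the G2 and M phases. The letters CCAAT, on either strand, occurred in 27 of 34 cell cycle genes with an entry in the RefSeq promoter table (79.4%) and in 16 of the 20 higher ones. They occurred in 41.1% of all 27025 genes with a promoter of 300 bases, counting a gene if any of its promoters matched. The sequences run 5′ to 3′ along the gene, from 250 bases before its start to 50 bases after, on build GRCm38.p6, with each match to CCAAT or its reverse complement in capitals. Top2a lies on the minus strand at chr11:99024140-99024439 with 6 matches and Cenpe on the plus strand at chr3:135212313-135212612 with 1. A match describes the letters and not a bound site.
Top2a: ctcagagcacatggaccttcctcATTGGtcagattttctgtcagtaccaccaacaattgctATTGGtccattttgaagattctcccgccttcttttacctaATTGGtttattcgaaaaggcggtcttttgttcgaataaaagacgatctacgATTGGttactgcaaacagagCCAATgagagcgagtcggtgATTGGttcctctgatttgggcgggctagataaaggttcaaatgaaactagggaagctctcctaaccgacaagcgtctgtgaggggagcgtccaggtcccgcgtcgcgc
Cenpe: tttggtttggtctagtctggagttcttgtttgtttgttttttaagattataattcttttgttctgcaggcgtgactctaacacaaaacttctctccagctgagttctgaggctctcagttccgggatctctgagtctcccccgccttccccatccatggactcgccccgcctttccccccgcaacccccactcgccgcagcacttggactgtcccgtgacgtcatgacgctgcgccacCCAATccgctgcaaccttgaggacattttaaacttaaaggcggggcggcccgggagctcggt

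The 2 graft libraries held different shares of dividing cells. After each cell was thinned to 1000 UMIs, so that depth was equal, cells with UMIs of at least 2 of 5 cell cycle genes made up 9.78% of kidney 2 (95% exact binomial interval 7.78 to 12.1%), 46.1% of kidney 3 (41.7 to 50.5%), and 3.85%, 2.44% and 2.87% of spleen 1, spleen 2 and spleen 3. Both graft libraries lay above the spleen libraries, with a difference of 24.9 percentage points between the means. In Lyz2-positive graft leukocytes the share was 2.60%. An exact permutation test of 2 against 3 libraries cannot go below p = 0.2, two-sided, which was its value here. Intervals cover counting error only.

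With all UMIs of the kept cells, 110 cells of kidney 2 and 343 of kidney 3 counted as dividing. Gzmb was at 1298 CPM in the dividing and 1048 CPM in the other cells of kidney 2, and at 2038 and 1001 CPM in those of kidney 3. Pdcd1 varied little, with 559 and 549 CPM in kidney 2 and 501 and 539 CPM in kidney 3. Ccl5 was lower in the dividing cells of both libraries, with 753 against 3149.5 CPM in kidney 2 and 132 against 803 CPM in kidney 3. Gzmb and Pdcd1 transcripts were therefore present in both groups of cells, with Gzmb higher in the dividing cells of both libraries. The groups differed in depth, with a median of 2916 and 3743 UMIs in the dividing cells of kidney 2 and kidney 3 and 1671 and 1982 UMIs in the others. The other cells of kidney 3 still held 114 CPM of Mki67. With dividing cells left out of all libraries, 939 genes were higher and 381 lower, 640 and 304 of them shared with the full set, and the log2 fold change was 6.24 for Gzmb, 6.54 for Pdcd1 and -4.74 for Lef1.

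**Figure D4:**
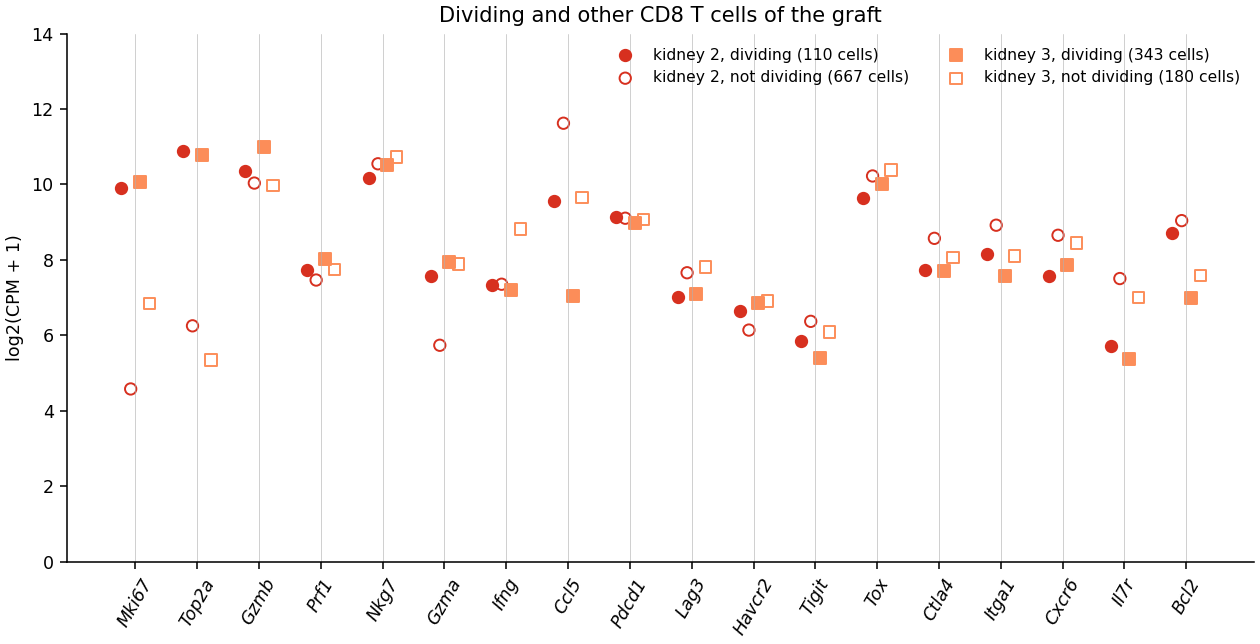
Level of selected genes as log2(CPM + 1) in dividing and other cells of kidney 2 and kidney 3. Pdcd1 lies between 501 and 559 CPM in all 4 groups, whereas Ccl5 ranges from 132 to 3149.5 CPM.

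Among 1810 genes with at least 100 CPM, the largest differences between the graft libraries in the direction of kidney 2 were in Ccl5, Bcl2 at 502 against 141 CPM, and Btg1, an antiproliferative gene, at 3541 against 1068 CPM. Malat1, a nuclear noncoding RNA, was at 29473 CPM in kidney 2 and 9599 CPM in kidney 3. Bcl2, the survival factor, was lower in the graft than in the spleen (-1.48 ± 0.41, adjusted p = 0.020) with 1151, 755 and 753 CPM in the spleen libraries, and the call was lost without kidney 3 and without spleen 1. Bcl2l11, encoding the proapoptotic protein BIM, was higher at 549 and 344 CPM against 105, 63.7 and 109 CPM (2.17 ± 0.31, adjusted p = 1.0e-04). Bcl2a1b, a prosurvival relative whose reads can be split among near-identical copies, was also higher (3.00 ± 0.40, adjusted p = 6.9e-05), and Bbc3, encoding PUMA, was lower (-2.67 ± 0.53, adjusted p = 0.0020; 0.11 without spleen 1).

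Interferon-stimulated genes were called more often as lower than as higher in the graft. Of 39 tested, 2 were higher in the graft and 8 were lower (5.13% and 20.5%, against 11% and 4.92% of all tested genes), with a median log2 fold change of -0.63. The summed level of the list was 1957 and 1967 CPM in the graft and 2764, 1628 and 3805 CPM in the spleen, so spleen 2 lay below both graft libraries and the groups overlapped. Ifit1bl1, of the antiviral IFIT family, was at 0.635 and 2.21 CPM in the graft and at 27.5, 0 and 28.9 CPM in the spleen (-3.92 ± 0.84, adjusted p = 0.0032), with spleen 2, the library of 41 cells, at 0. Usp18, a brake on type I interferon receptor signalling, was at 2.54 and 9.38 CPM against 26.0, 9.09 and 31.0 CPM (-2.04 ± 0.62, adjusted p = 0.030), with overlap, and the call was lost without kidney 2, without spleen 3 and with dividing cells left out. Isg20, an exonuclease, was higher at 69.2 and 54.1 CPM against 10.7, 18.2 and 14.4 CPM (2.23 ± 0.40, adjusted p = 9.8e-04). With dividing cells left out, 2 of 33 tested were higher and 3 lower, in a fit that called 939 genes higher and 381 lower in all.

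Phf11b, a PHD finger gene, was higher at 87.0 and 121 CPM against 33.6, 63.7 and 49.5 CPM (1.22 ± 0.34, adjusted p = 0.020), a call lost under TMM scaling, with marker-positive cells left out, without kidney 3, without spleen 1 and without spleen 3. Promoters of 1 interferon gene from each direction are shown because both carry the same motif. The core of the interferon-stimulated response element, GAAA followed by any 2 bases and GAAA again, occurred on either strand in 22 of 36 interferon genes with an entry (61.1%) against 3.99% of all genes with an entry. It occurred in 1 of the 2 higher genes and in 3 of the 4 lower ones with an entry. The matches are in capitals, from RefSeq on build GRCm38.p6, 5′ to 3′ along the gene. Ifit1bl1 lies on the minus strand at chr19:34601919-34602218 and Phf11b on the minus strand at chr14:59341281-59341580.
Ifit1bl1: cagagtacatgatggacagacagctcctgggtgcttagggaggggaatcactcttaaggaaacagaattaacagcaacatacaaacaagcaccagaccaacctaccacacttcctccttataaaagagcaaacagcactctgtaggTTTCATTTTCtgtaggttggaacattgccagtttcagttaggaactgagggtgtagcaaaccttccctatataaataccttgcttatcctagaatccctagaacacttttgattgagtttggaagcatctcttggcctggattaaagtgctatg
Phf11b: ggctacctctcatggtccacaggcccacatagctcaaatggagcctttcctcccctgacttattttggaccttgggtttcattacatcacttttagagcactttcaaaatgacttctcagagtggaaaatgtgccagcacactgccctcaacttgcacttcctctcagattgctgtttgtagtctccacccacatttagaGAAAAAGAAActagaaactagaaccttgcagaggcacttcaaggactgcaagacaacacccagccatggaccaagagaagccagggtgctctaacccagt

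Of 23 tested MHC class I genes, 2 (8.70%, near the 11% of all tested genes) were higher, the chaperones Canx (0.99 ± 0.29, adjusted p = 0.030) and Pdia3 (1.01 ± 0.29, adjusted p = 0.026), and both calls were lost under TMM scaling, without kidney 3, without spleen 1 and without spleen 3, that on Canx also with dividing cells and that on Pdia3 with marker-positive cells left out. B2m, the light chain of class I molecules, was at 1354 and 944 CPM against 1244, 1700.5 and 1473 CPM (-0.35 ± 0.26, adjusted p = 0.39).

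Heat shock genes were higher in 9 of 13 tested and in 6 under TMM scaling. Hspa1a, the inducible HSP70 chaperone, was at 157 and 72.3 CPM in the graft with no UMI in the spleen, at least 46.5-fold higher against 3 UMIs over the spleen libraries. Its near-identical neighbour Hspa1b, with which reads may be shared, was at 171 and 84.4 CPM against 1.53, 0 and 4.13 CPM (5.65 ± 0.59, adjusted p = 5.9e-06). Lyz2-positive graft leukocytes held 169.9 and 88.6 CPM of Hspa1a, a level like that in the CD8 T cells of the same library. Hspa8, the constitutive chaperone, was not called (0.56 ± 0.26, adjusted p = 0.16). The part of tissue digestion in these values cannot be told apart from that of the tissue.

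Immediate early genes, which respond within minutes to stimulation, were called in 3 of 17 tested, 2 higher and 1 lower, close to the 15.9% of all tested genes called in either direction. Rgs16, a regulator of G protein signalling, was at 217 and 199 CPM against 6.12, 9.09 and 2.06 CPM (5.39 ± 0.45, adjusted p = 1.1e-06). Jund was higher at 0.91 ± 0.27 and Ier5 lower at -1.30 ± 0.33 (adjusted p = 0.029 and 0.013), and both calls were lost without spleen 1 or without spleen 3, that on Jund also without kidney 2 and under TMM scaling, and that on Ier5 also without kidney 3 and in thinned cells.

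Glycolytic genes were higher in 8 of 19 tested and lower in 1 (42.1% and 5.26%, against 11% and 4.92% of all tested genes). Gapdh was at 710.0 and 1252 CPM against 321, 127 and 285 CPM (1.93 ± 0.33, adjusted p = 6.6e-04), and Hk2, the inducible hexokinase, was higher at 2.12 ± 0.42 (adjusted p = 0.0019). Pdk1, which inhibits pyruvate dehydrogenase, was lower in both graft libraries than in any spleen library (-2.42 ± 0.36, adjusted p = 1.9e-04). Of 39 genes of oxidative phosphorylation 5 were higher (12.8%, near the 11% of all tested genes), 2 under TMM scaling. Of 21 MYC target genes none was called. With dividing cells left out 6 of 20 were lower (median log2 fold change -0.71). That fit kept 180 of 523 cells of kidney 3 but 293 of 312 of spleen 1, and called 381 genes lower in all. Its share over all tested genes is not given here, so the count is no result about the list. T cell receptor signalling genes were called in 11 of 24 tested, with 8 higher and 3 lower (33.3% and 12.5%, against 11% and 4.92% of all tested genes). Cd3e and Cd3g, chains of the receptor complex, were higher at 1.19 ± 0.25 and 1.36 ± 0.27 (adjusted p = 0.0040 and 0.0020), as was Ptpn6, encoding the inhibitory phosphatase SHP-1 (1.66 ± 0.31, adjusted p = 0.0014), whereas Prkcq, encoding PKC-θ, was lower (-1.37 ± 0.27, adjusted p = 0.0021).

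A list of annexins, S100 proteins and galectins also held Vim, Ahnak, Crip1, Tagln2 and Emp3. Of its 15 tested genes, 7 were higher and 1, Emp3, was lower, a call lost when any library but kidney 3 was left out. S100a4, a calcium-binding protein of motile cells, was at 774 and 856 CPM against 74.9, 318 and 189.8 CPM (2.22 ± 0.39, adjusted p = 8.6e-04). Lgals1, encoding galectin-1, was at 635 and 1996 CPM against 318, 391 and 379.7 CPM (1.87 ± 0.36, adjusted p = 0.0017), and lost the call without kidney 3 and without spleen 1. Nrgn, a calmodulin-binding protein best known from neurons, was among the 15 largest differences by the naming rule, with 62.9 and 81.1 CPM in the graft against 1.53, 0 and 0 CPM (6.28 ± 0.69, adjusted p = 6.3e-06; 9.17 without spleen 1, which held the 1 spleen UMI). Lyz2-positive graft leukocytes held 2.57 and 0.951 CPM of Nrgn. Of 8 GTPases of the GIMAP family 1 was lower, Gimap6 (-0.91 ± 0.29, adjusted p = 0.043), and of 7 amino acid transporters 1 was higher, Slc38a1 (1.20 ± 0.30, adjusted p = 0.0098). These are 12.5% of the GIMAP genes, against 4.92% of all tested genes, and 14.3% of the transporters, near the 11% of all tested genes, and 1 gene of a list this short is no result about the list. The call on Gimap6 was lost when any library but kidney 2 was left out, with dividing cells and with marker-positive cells left out, and that on Slc38a1 without kidney 2 or spleen 1. Tgfb1, Cd44, Gapdh, Hk2, Ptpn6, Bcl2a1b, Phf11b, Canx and Pdia3 were also higher in Lyz2-positive leukocytes than in CD8 T cells in both graft libraries, and of these Phf11b and Pdia3 lost the call with marker-positive cells left out.

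Shares of cells with a UMI, after thinning to 1000 UMIs per cell, followed the sums for the main genes. Gzmb was detected in 54.3% and 61.4% of graft cells (67.4% and 77.2% before thinning) and in 0.641%, 4.88% and 2.46% of spleen cells (1.92%, 7.32% and 3.69% before). The share in 6923 Lyz2-positive leukocytes of the graft without CD3 or CD8 UMIs, with a median depth of 2330 UMIs, was 1.16%, which serves as a background for the graft libraries and not for the spleen. Pdcd1 was detected in 38.9% and 35.6% of graft cells, in 2.44% of spleen 2 and in none of the cells of spleen 1 and spleen 3, which at this depth allows shares of cells with a UMI of up to 0.962% and 1.23%, and the share in Lyz2-positive graft cells was 0.448%. Before thinning the shares were 56.5% and 70.4% in the graft and 0.321%, 2.44% and 1.23% in the spleen. Median depth before thinning was 1762 and 3056 UMIs in the graft libraries and 1811.5, 2442 and 1793 UMIs in the spleen libraries.

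Tox was found in 51.4% and 56.8% of graft cells and 16.0%, 19.5% and 16.0% of spleen cells, and in 1.08% of the Lyz2-positive graft cells. Lef1 showed the reverse, with 1.29% and 3.25% against 56.7%, 36.6% and 58.2% and 0.202% of the Lyz2-positive graft cells. After thinning, Pdcd1 and Gzmb were detected together in 22.3% ± 0.378 of graft cells (mean and SD of 2 libraries), and Pdcd1 and Tox together in 20.5% and 21.6%. Before thinning, Pdcd1 and Gzmb were found together in 39.9% of kidney 2 and 56.2% of kidney 3. For Pdcd1 and Tox these shares were 40.03% and 60.04%. The joint shares and their spread between the graft libraries thus depended on depth. Whether both genes occurred in the same cells more often than their single shares predict was not tested. Pdcd1 with Tcf7, the pair used to mark stem-like cells of chronic responses, was found after thinning in 0.772% and 0.956% of graft cells and in none of the spleen cells. Before thinning it was found in 2.32% and 4.21% of graft cells and 0.321%, 0% and 0.410% of spleen cells. Ccl5 and Il2rb overlapped between the tissues, with Ccl5 in 48.1% and 11.9% against 12.8%, 24.4% and 12.3%, and Il2rb in 25.2% and 29.6% against 9.29%, 36.6% and 6.56%. The shares in Lyz2-positive graft cells were 8.84% for Ccl5 and 1.10% for Il2rb. Of 30 shares compared, none could pass 0.05, since 0.2 is the smallest two-sided p that this design allows.

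**Figure D5:**
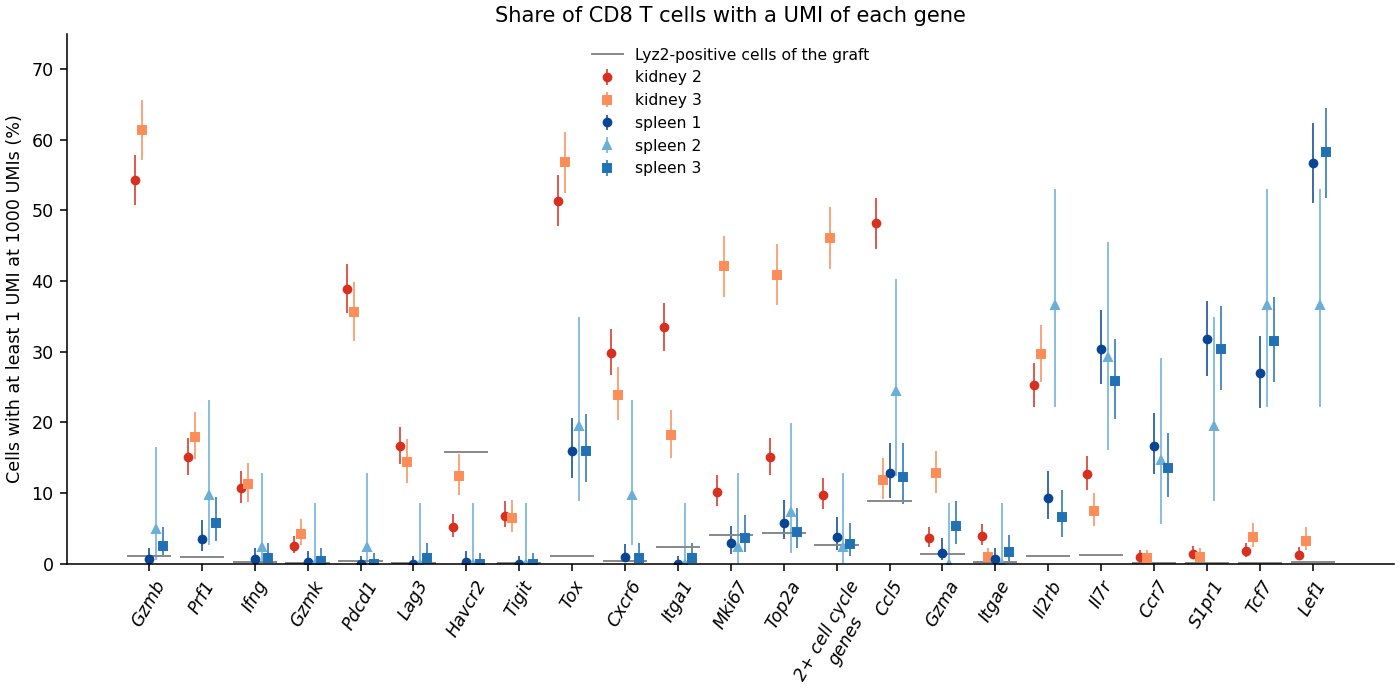
Percent of cells with at least 1 UMI of each gene after thinning to 1000 UMIs per cell, 1 point per library with its 95% exact binomial interval, and a grey bar for Lyz2-positive graft cells. Gzmb, Pdcd1 and Tox lie higher in both graft libraries, Lef1, S1pr1 and Tcf7 lie higher in all spleen libraries, and Ccl5, Gzma, Itgae and Il2rb overlap.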

How the data were processed

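Droplet single-cell RNA-seq of sorted CD45+ leukocytes was read from the raw UMI counts deposited by the authors as 1 matrix for each tissue and cell type. Per the submitters' processing notes, Cell Ranger and genome build mm10 were used, and the Cell Ranger version is not given in the sources used here. The authors assigned cells to the CD8 T cell matrices, and how doublets were treated before deposit is not given in the sources used here. No doublet caller was run.

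Cells were selected by the CD8, Cd4, Cd79a and Lyz2 rule, and UMIs were summed per library tag, giving 2 graft and 3 spleen libraries of 109968 to 1812402 UMIs. edgeR 4.0.16 (R 4.3.3) tested the sums by its quasi-likelihood test with plain library totals and filterByExpr. P-values were adjusted by Benjamini-Hochberg over 7586 genes with a threshold of 0.05, and SE denotes the standard error of the log2 fold change. The procedure was tested on simulated counts of the same libraries with known changes. The simulated spread between libraries was set above the fitted common value. Of 50 genes simulated at a log2 fold change of 1, 3 were called, and 3 of 50 at -1. At 2 and -2 the shares called were 84% and 67.3%. The changed genes were drawn from those above a minimum mean level, with the same simulated spread for every gene. The shares called do not extend to genes of lower level. A gene that is not called may therefore still differ.

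Shares of cells were computed after thinning each cell to 1000 UMIs (no cell was shallower), with exact binomial intervals and an exact permutation test. Where no cell had a UMI, the limit given is 3 cells of the library, for cells with a UMI at this depth and counting error only. Python 3.11.15, numpy 2.4.6, scipy 1.17.1, pandas 2.3.3 and matplotlib 3.10.9 were used, and DESeq2 1.42.0 served as an alternative. Promoter sequences were taken from RefSeq (GRCm38.p6).

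The genes named are, first, 15 in each direction ranked by log2 fold change among called genes without overlap and with at least 50 CPM in the higher tissue. To these were added, from each functional list, the 4 most abundant members and up to 3 called members in each direction, and the genes of the share analysis. The text describes some of these 210 genes. Some genes of the lists are not reported here and were left out of the list counts. Btg1 and Malat1 were named for the difference between the graft libraries after their values were seen. Eomes was also chosen after its values were seen. The cells, gene lists and tests were chosen with earlier results of these data known. Alternatives were other scalings, filters, cell selections, DESeq2, the library number as a block, and leaving out each library.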

Additional observations from a re-analysis of the deposited data

How the results depend on the processing

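The number of genes higher in the graft was 835, and it was 516 under TMM scaling, 527 with DESeq2 size factors, 480 with totals that leave out ribosomal, mitochondrial, immunoglobulin, haemoglobin and cell cycle genes, 332 in the DESeq2 test and 446 with the library number as a replicate block. It ranged from 284 to 1236 when 1 library was left out. The number of lower genes was 373, and it was 224 without marker-positive cells, 242 with the replicate block and 167 to 482 when 1 library was left out. The differences between libraries 2 and 3 did not correlate between the tissues (r = -0.06, across 7586 genes). With 1 such difference per tissue and 41 cells in spleen 2, this cannot decide whether equal library numbers mark the same mouse. The difference in the share of dividing cells was 24.9 percentage points, and 6.73 to 43.0 when 1 library was left out. Gzma had a log2 fold change of 0.01 and changed sign with TMM scaling (-0.21), DESeq2 size factors (-0.21), the reduced totals (-0.24), DESeq2 (-0.22), marker-positive cells left out (-0.63), the replicate block (-0.47) and 1 library left out (-0.96 to 0.59), while it was 1.30 with dividing cells left out and 1.11 in thinned cells. Ccl5 ranged from -1.35 to 1.87 when 1 library was left out, and its share difference of 13.5 percentage points ranged from -4.65 (without kidney 2) to 31.6 (without kidney 3). The cause of these changes was not tested. Of 152 called named genes, 93 kept the call whichever library was left out, and 51 lost it without spleen 1. The DESeq2 test also lost the calls on Cst7, Tgfb1, Ccl4, Il2rb, Cx3cr1, Phf11b, Usp18, Canx, Pdia3, Jund and Slc38a1. The 41 cells of spleen 2 limit the precision of its values, where 1 UMI is worth 9.09 CPM.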
